A study of Mus musculus with 8 samples.

Results

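The 5 livers of POMCMfn2KO mice lay farther from one another than the 3 control livers did, and which liver stood apart changed from gene to gene. The 5 livers are those whose labels read POMCMfn2KO 1 to 5, out of 8 livers in the series, and they are called livers 1 to 5 here. Their spread was described gene by gene for 11986 genes, with the 3 control livers as a reference for the noise of the arrays. All levels, differences and standard deviations (SD) are on the log2 scale of the array, on which a difference of 1 is a doubling. Levels of different genes are not compared, because each probe set has its own brightness.

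POMCMfn2KO mice lack Mfn2, a gene of mitochondrial fusion, in the neurons of the hypothalamus that make pro-opiomelanocortin (POMC). The deletion is in the brain, and the organ measured here is the liver. All 8 mice were 6 weeks old, were of a mixed C57Bl/6J, FVB/N and 129 background, and ate standard chow freely under a light-dark cycle. The controls are labelled WT. RNA was taken from whole liver, so fewer cells of a type and less RNA per cell cannot be told apart. The labels call the livers of each group biological replicates, and give no sex, litter, hour of collection, fasting state or array batch, and no name for the Cre line.

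The liver responds within hours to feeding, fasting, stress hormones, bacterial products and the time of day. Glucocorticoids, growth hormone, insulin and xenobiotic receptors each control their own group of hepatocyte genes. Hepatocytes also differ along the lobule, from the periportal end, where urea is made, to the pericentral end, which holds many cytochrome P450 enzymes. A whole-liver sample can in addition carry other cell types, such as Kupffer cells, blood cells, or tissue that lies next to the liver.

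The median gene had an SD of 0.13 over the 5 knockout livers and 0.07 over the 3 control livers. The SD was larger over the knockout livers for 80.0% of genes. It reached 0.5 for 308 genes over the knockout livers, which is 2.57% of those tested, and for 3 genes over the control livers, which is 0.025%. It reached 1 for 56 genes over the knockout livers and for 0 over the controls. The ratio of the median SDs rose with brightness, from 1.37 in the dimmest of 3 equal classes of genes to 2.01 in the middle class and 2.72 in the brightest. The rise came from the controls, whose median SD fell from 0.094 to 0.070 and 0.050. Over the knockout livers the median SD changed little, at 0.129, 0.141 and 0.135. At the threshold of 0.5, Cox7c lay just inside with an SD of 0.50, and Bank1 lay just outside with 0.4998. An SD over 3 livers and one over 5 livers differ in their own precision, and these counts were not tested.

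**Figure D1:**
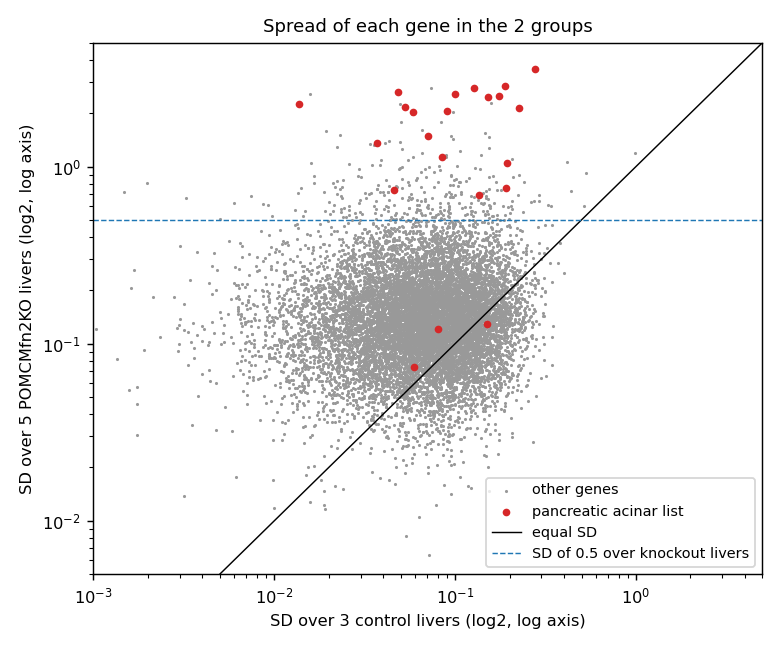
Each point is 1 of the 11986 genes, with its SD over the 3 control livers on the x axis and its SD over the 5 POMCMfn2KO livers on the y axis, both in log2 units on log axes. Most points lie above the line of equal SD, and 19 of the 22 genes of the pancreatic acinar list (red) lie above the dashed line at an SD of 0.5.

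The distance between 2 livers was taken as the root mean square of their differences over all genes tested. Pairs of control livers were 0.129 to 0.143 apart. Among the 10 pairs of knockout livers, livers 2 and 3 were closest at 0.184, and 25 genes differed between them by 2-fold or more. Liver 5 was 0.275 from liver 2 and 0.279 from liver 3. The other 7 pairs, each with liver 1 or liver 4, were 0.322 to 0.379 apart, and the pair of livers 1 and 5 was the farthest, with 241 genes differing by 2-fold or more. Liver 4 was 0.309 to 0.325 from the controls, against 0.410 to 0.439 for the other 4 knockout livers. Liver 4 was thus about as far from the controls as from its nearest knockout liver, liver 3.

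**Figure D2:**
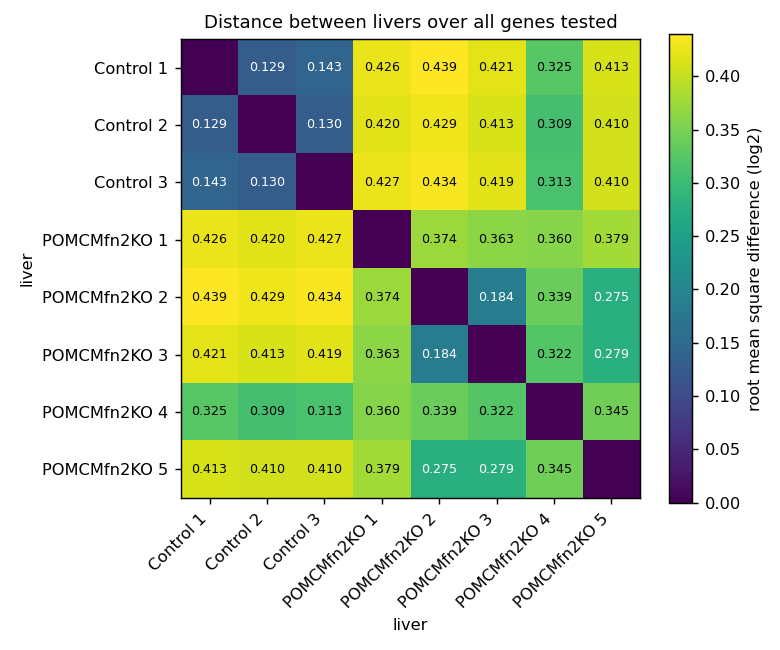
Each square gives the root mean square difference in log2 level between 2 livers over 11986 genes, with the livers on both axes. The 3 control livers form a dark block of 0.129 to 0.143, livers 2 and 3 are the closest knockout pair at 0.184, and liver 4 is the knockout liver nearest to the controls.

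A principal component analysis of the 5 livers gave 4 components with 42.4%, 28.6%, 21.2% and 7.79% of the variance. The first set liver 1 (coordinate 0.76) and, less far, liver 4 (0.25) against livers 2, 3 and 5 (-0.40, -0.33 and -0.29). The second set liver 4 (0.85) against liver 1 (-0.46). The third set liver 5 (0.84) against livers 2 and 3 (-0.37 and -0.41), and the fourth set liver 3 (0.72) against liver 2 (-0.69). The genes with the lowest scores on the first and on the third component were enzymes of the exocrine pancreas, led by Cpb1 (-4.54 and -5.16), so both components also carry the acinar genes. The second was led by Cyp2c39 (-3.98), Hsd17b13 (-3.83) and, at the other end, Nat8 (3.01).

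Single genes were described in the same way. For each of the 308 genes, the 5 livers were split at the largest gap between neighbouring levels, which can happen in 30 ways. In 204 genes (66.2%) the gap left 1 liver alone, which is the share of all genes tested (66.6%), and in 104 it split them 2 against 3. The largest gap was also wide by Dixon's ratio, the gap of the outermost liver over the range, in few of them: 33 of the 308 (10.7%) passed 0.71, against 7.36% of all genes. Liver 1 was the one alone in 102 of the 308 genes (48 high, 54 low), which is 33.1% against 24.1% of all genes. Liver 4 was alone in 71 (33 high, 38 low), 23.1% against 15.2%. Liver 5 was alone in 15, 4.87% against 14.6%, and livers 2 and 3 in 8 each. The commonest splits of 2 against 3 were livers 2 and 3 high (24 genes), livers 2, 3 and 5 high (19 genes) and livers 1 and 4 high (17 genes). Over the 308 genes, liver 4 was the knockout liver closest to the mean of the controls for 126 genes, and liver 1 was the farthest from it for 118. The mean of the controls lay within the range of the 5 livers for 215 of the genes, below all 5 for 43 and above all 5 for 50.

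**Figure D3:**
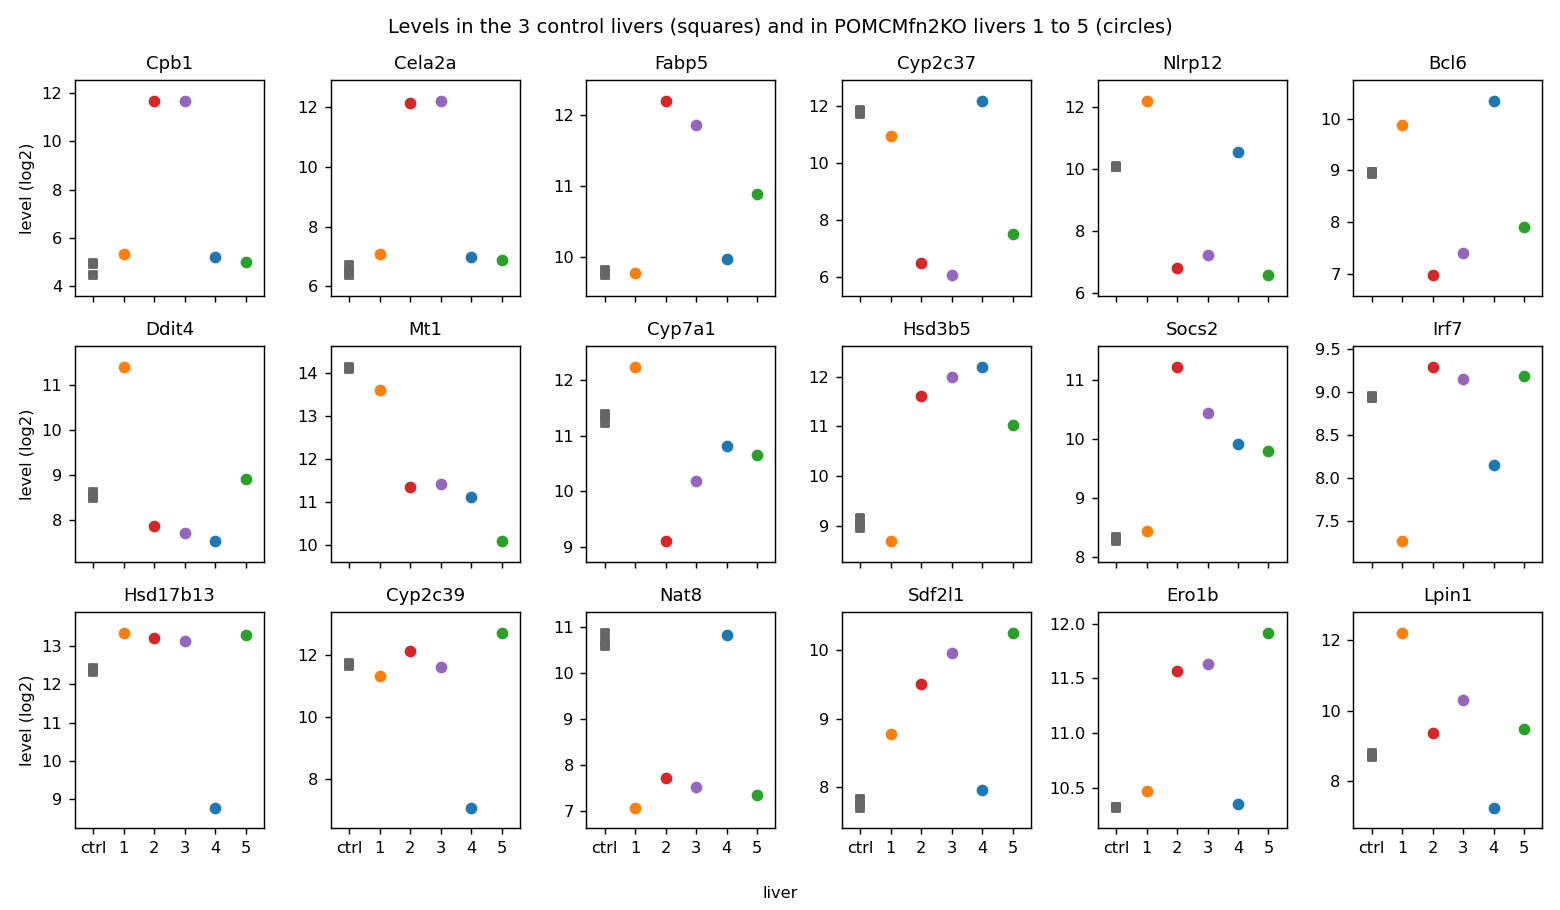
Log2 levels of 18 genes in the 3 control livers (squares) and in POMCMfn2KO livers 1 to 5 (circles), each panel with its own y axis. The panels show the main patterns: livers 2 and 3 high (Cpb1, Cela2a), livers 1 and 4 high (Cyp2c37, Nlrp12, Bcl6), liver 1 apart (Ddit4, Hsd3b5), liver 4 apart (Hsd17b13, Cyp2c39, Nat8) and livers 2, 3 and 5 high (Irf7, Ero1b).

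The widest spread belonged to enzymes of the exocrine pancreas. Cpb1, pancreatic carboxypeptidase B, stood at 11.69 and 11.68 in livers 2 and 3, at 5.34, 5.24 and 5.03 in livers 1, 4 and 5, and at 4.98, 4.92 and 4.47 in the controls. Its highest and lowest knockout livers differed 101-fold. Cela2a, a chymotrypsin-like elastase, stood at 12.14 and 12.21 in livers 2 and 3 and at 7.08, 6.98 and 6.88 in livers 1, 4 and 5. In both genes livers 1, 4 and 5 lay close to the controls and livers 2 and 3 far above them. Of the 22 tested genes of the acinar list, 19 had an SD of at least 0.5 (86.4%, against 2.57% of all genes), the median SD was 2.05, and the median correlation between members was 0.97. The other 3 were Bhlha15, Klk1 and Rbpjl. The filter on level bears on this share: 6 of the 22 (Cpa1, Cpb1, Ctrc, Reg1, Rnase1 and Spink1) passed it through livers 2 and 3, with a mean over the other 6 livers under the filter, and 8 more members were left out by it. Of those 8, 3 had an SD of at least 0.5, which gives 22 of the 30 members measured. Among all genes with an SD of at least 0.5, 23 followed the mean of the acinar list with r of at least 0.9, and 19 of these were its own members. The pancreatic islet list did not move with them: its 2 tested genes had a median SD of 0.12.

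Correlations such as these are taken over 5 livers and describe these 5 only. Genes on an array share the liver, its RNA and its hybridisation, and 2.71% of all 71826105 pairs of genes had an r of at least 0.9. Among pairs of genes that both had an SD of at least 0.5 the share was 4.89%.

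The spread itself was tested with limma on the absolute deviation of each liver from its group mean, knockout against control, with Benjamini-Hochberg adjustment over all genes. At an adjusted p under 0.05, 15 genes (0.125%) had a larger spread among the knockout livers and 0 had a smaller one. At an unadjusted p under 0.05 there were 1379 with a larger and 151 with a smaller spread. Of the 15 genes, 13 were members of the acinar list and another, 2210010C04Rik, followed that list with r of 0.9996. The 13 include 5 of the genes that passed the filter on level through livers 2 and 3. The last was Kyat3, a kynurenine aminotransferase, at 12.34, 12.35 and 12.44 in livers 2, 3 and 5 and 11.47 and 11.38 in livers 1 and 4, with controls at 11.22 to 11.25 (adjusted p = 0.045, limma). This test favours genes whose livers split 2 against 3, since all 5 deviations are then large, and picks up a single liver apart poorly. It called 0 genes when any 1 control liver was left out, when livers 2 and 3 were left out together, and when the acinar list was left out.

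The size of the spread was also taken without livers 2 and 3, where the acinar transcripts were high. Over livers 1, 4 and 5 alone, where 1 of the 22 acinar genes (Cela1) had an SD of at least 0.5, the median SD was 0.15. There 488 genes had an SD of at least 0.5, among them 257 of the 308. As livers 2 and 3 were the closest knockout pair (0.184), leaving out both tends by itself to raise the SD of the rest. An SD over 3 livers is also less precise, so the rise is not read as more spread. Without the acinar list, 289 genes had an SD of at least 0.5 over all 5 livers, and the first component took 44.7% of the variance.

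Skeletal muscle transcripts were also highest in livers 2 and 3. Acta1, skeletal muscle actin, stood at 6.58, 8.84, 8.79, 8.08 and 7.91 in livers 1 to 5. Tnnc2, a troponin, stood at 6.70, 8.16, 8.06, 7.18 and 7.07. The median correlation among the 6 tested muscle genes was 0.85, and 3 of them had an SD of at least 0.5. Acta1 also varied among the controls, with an SD of 0.53. Fabp5, a fatty acid binding protein of epithelia and endothelium, was at 12.20 and 11.87 in livers 2 and 3, 10.89 in liver 5, and 9.77 and 9.97 in livers 1 and 4; its second probe set followed it with r of 0.99.

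Genes that were high in livers 1 and 4 and low in livers 2, 3 and 5 included some of the widest differences outside the acinar list. Cyp2c37, a P450 enzyme that oxidises arachidonic acid and drugs, stood at 10.95 and 12.21 in livers 1 and 4 and at 6.49, 6.06 and 7.52 in livers 2, 3 and 5, a 70.7-fold range. The 3 controls were at 11.72 to 11.86, so livers 1 and 4 lay near the controls and the others far below. Nlrp12, a regulator of innate immune signalling, stood at 12.20 and 10.56 in livers 1 and 4 and at 6.79, 7.22 and 6.57 in the others. Its controls were at 10.06 to 10.09. Bcl6, a transcriptional repressor that acts in hepatocytes on lipid and sex-biased genes, stood at 9.88 and 10.35 against 6.98, 7.41 and 7.91, with controls at 8.93 to 8.98. These genes are grouped here by this split, so livers 1 and 4 cannot overlap livers 2, 3 and 5 in them. Of the genes with an SD of at least 0.5, 17 (5.52%) took this split. In all 3 genes the controls lay above livers 2, 3 and 5.

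The same split was seen, over a smaller range, in enzymes of metabolism. Oat, ornithine aminotransferase of pericentral hepatocytes, stood at 13.45, 12.51, 12.73, 13.80 and 12.09 in livers 1 to 5. Gstt3, a glutathione transferase, stood at 9.22, 7.90, 7.49, 9.17 and 8.42. Sult1b1, a sulfotransferase, stood at 8.61, 7.52, 7.82, 8.67 and 7.13, and Thrsp, a regulator of fat synthesis, at 9.74, 8.67, 9.10, 9.83 and 8.86. Each is shown because of this split, so that livers 1 and 4 lie above the other 3 follows from the choice.

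Liver 1 had the highest level of 14 of the 17 tested genes that glucocorticoids are known to induce. Counts of the highest or lowest liver, here and below, describe the members only, as the share over all genes was not taken. Liver 1 was often at an extreme: it was alone at the largest gap, high or low, in 24.1% of all genes. In 9 of the 17 the SD was at least 0.5 (52.9%), the median SD was 0.52, and the median correlation between members was 0.71. The mean of the list, centred over the 5 livers, was 0.89 in liver 1, -0.11 in liver 2, -0.03 in liver 3, -0.59 in liver 4 and -0.16 in liver 5. Liver 4 was the lowest liver for 12 of the 17. Liver 1 therefore lay at the high end and liver 4 at the low end of this group.

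Ddit4, an inhibitor of mTORC1 that stress and glucocorticoids induce, stood at 11.41 in liver 1 and at 7.87, 7.71, 7.54 and 8.93 in livers 2 to 5. The controls were at 8.50 to 8.63, within the range of the other 4. Zbtb16, a glucocorticoid-induced transcription factor, stood at 9.72, 8.60, 8.70, 7.53 and 8.49. Fkbp5, a co-chaperone of the glucocorticoid receptor, stood at 11.39, 10.79, 10.71, 9.66 and 10.68, with controls at 9.38 to 9.39. For Fkbp5, liver 4 was the only knockout liver near the controls. Igfbp1, a secreted binding protein of insulin-like growth factors that insulin represses, stood at 13.62, 13.10, 12.87, 11.88 and 11.71, with controls at 10.45 to 10.61. Here all 5 knockout livers were above the controls, and the order among them differed from that of Ddit4.

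The genes that followed Igfbp1 most closely over the 5 livers, among those with an SD of at least 0.5, were Mt2 (r of 0.97), Serpina4-ps1 (0.94), Retreg1 (0.89), Sdc4 (0.87), Mt1 (0.85), Fmn2 (0.85), Lepr (0.85), 1810053B23Rik (0.85), Fst (0.82) and Pptc7 (0.81). Those most opposed were Fabp7 (-0.96), Tbx3 (-0.96), Anxa5 (-0.95), Rnf186 (-0.94) and Nxpe2 (-0.94). Lepr encodes the leptin receptor. Tbx3, a transcription factor of pericentral hepatocytes, stood at 7.74, 8.53, 8.81, 9.50 and 9.34 in livers 1 to 5. The second probe set of Sdc4, a heparan sulfate proteoglycan, went the opposite way to the first (r of -0.86), so its place in this list rests on 1 probe set.

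The metallothioneins Mt1 and Mt2, small proteins that bind zinc and are induced by zinc, inflammation and glucocorticoids, were highest in liver 1. Mt1, Mt2 and Lcn2 (below) are also in the glucocorticoid list above and were counted there, so they are not a further group. Mt2 stood at 12.40, 10.53, 10.28, 9.02 and 8.29 in livers 1 to 5, a 17.2-fold range, and at 13.22 to 13.26 in the controls. Mt1 stood at 13.60, 11.34, 11.41, 11.11 and 10.09, with controls at 14.09 to 14.14. Both were below the controls in every knockout liver, least so in liver 1. The acute phase protein Lcn2, a siderophore-binding lipocalin, was also highest in liver 1, with 8.90 in liver 1 and 6.74, 7.13, 6.40 and 7.17 in livers 2 to 5, against 12.25 to 12.50 in the controls. Lcn2 was the 1 gene of the 26 tested in the acute phase list with an SD of at least 0.5, and the median SD of the list was 0.20. Saa1 stood at 10.64, 10.80, 11.22, 10.46 and 10.88.

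Some enzymes that handle foreign compounds, sterols and steroids had their highest level in liver 1, while their lists as a whole did not. Liver 1 was the highest for 4 and the lowest for 6 of the 22 tested xenobiotic P450 genes, the highest for 3 and the lowest for 11 of the 20 phase II and transporter genes, and the highest for 5 and the lowest for 7 of the 20 bile acid genes. Cyp2b10, the classic target of the xenobiotic receptor CAR, stood at 11.48 in liver 1 and at 8.87, 7.28, 7.09 and 8.06 in livers 2 to 5, with controls at 7.40 to 7.56. Cyp7a1, the rate-limiting enzyme of bile acid synthesis, stood at 12.24, 9.10, 10.19, 10.82 and 10.66, with controls at 11.22 to 11.39. Liver 2 was its lowest, so the range of 8.84-fold came from both ends. Cyp17a1, which makes androgen precursors, stood at 11.39, 9.99, 10.07, 8.94 and 10.01. Defb1, an epithelial antimicrobial peptide, stood at 10.29, 6.60, 5.65, 5.08 and 7.23, a 36.9-fold range.

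The centred mean of the enzymes of amino acid breakdown was also highest in liver 1 (0.33), by smaller amounts. Liver 1 was the highest for 18 of the 25 tested genes of the urea cycle and amino acid list, and the median correlation between members was 0.64. Asl, argininosuccinate lyase, stood at 13.79 in liver 1 and at 12.54, 12.82, 12.88 and 12.82 in livers 2 to 5. Aass, the first enzyme of lysine breakdown, stood at 13.25, 12.21, 12.39, 12.51 and 11.72. The gluconeogenesis list had 0 of 13 genes with an SD of at least 0.5. Within it Gpt2, Got1 and Tat, which feed amino acid carbon into glucose, were highest in liver 1, while G6pc, glucose-6-phosphatase, stood at 13.12, 13.43, 13.23, 12.78 and 13.05, and Pck1, phosphoenolpyruvate carboxykinase, at 14.06, 13.90, 14.00, 13.82 and 14.04.

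Most tested genes of the dendritic cell and MHC class II list were highest in liver 1. H2-Eb1, an MHC class II chain, stood at 9.77 in liver 1 and at 8.97, 8.83, 8.98 and 8.67 in livers 2 to 5. Liver 1 was the highest for 5 of the 6 tested genes of that list and liver 5 the lowest for all 6, with a median correlation of 0.79. The exception was Ciita, at 5.94 in liver 4 and 5.73 in liver 1. The dendritic cell markers Itgax, Siglech and Xcr1 were under the level filter. The Kupffer cell and macrophage list, given below, was highest in liver 5. None of the 6 reached an SD of 0.5. Their part in the other genes of liver 1 was not tested.

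The genes that were low in liver 1 included targets of growth hormone and some male-biased enzymes. Socs2, a feedback inhibitor of growth hormone signalling, stood at 8.44 in liver 1 and at 11.22, 10.43, 9.91 and 9.79 in livers 2 to 5, and the controls were at 8.26 to 8.33. Liver 1 lay near the controls and the other 4 above them. Igfals, which holds insulin-like growth factor in a circulating complex, stood at 9.07 in liver 1 and at 10.06 to 10.31 in the other 4. Hsd3b5, a male-biased steroid dehydrogenase, stood at 8.68, 11.61, 11.99, 12.20 and 11.03, with controls at 8.96 to 9.14. Elovl3, a male-biased fatty acid elongase, stood at 11.71, 12.98, 13.62, 13.18 and 13.08. Among the 15 tested male-biased genes, 4 had an SD of at least 0.5, and liver 1 was the lowest for 6. The 4 were not alike. Ugt2b38 stood at 10.46, 11.06, 11.91, 9.67 and 11.46 in livers 1 to 5. Serpina4-ps1 stood at 10.60, 10.66, 10.20, 9.55 and 9.73, so liver 4 was the lowest for both. Liver 1 was the lowest for 5 of the 12 genes of the IGF axis and the highest for 2, and the median correlation of that list was 0.01. The 2 were Igfbp1 (13.62 in liver 1) and Igfbp3 (9.70), both with an SD of at least 0.5, so the list did not move together.

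Female-biased genes did not move as the mirror image. Acot3, an acyl-CoA thioesterase, was lowest in liver 1 at 7.05, against 9.06, 9.44, 10.68 and 9.68, whereas Cyp17a1 and Fmo2 were highest there. The median correlation among the 10 tested genes of that list was -0.15. The 3 tested genes of the Y chromosome had SDs of 0.06 (Eif2s3y), 0.15 (Kdm5d) and 0.22 (Uty) over the 5 knockout livers, with liver 1 the highest for all 3. Their mean level was above the level filter in all 8 livers, at 7.91 to 8.21 in the knockouts and 7.94 to 8.04 in the controls. Xist was below the level filter in every liver, at 5.26 to 5.51 in the knockouts and 5.24 to 5.43 in the controls. Pdk4, which blocks the entry of pyruvate into mitochondria, was also low in liver 1, at 8.01 against 9.97, 9.42, 9.48 and 9.84, as was Osgin1, an NRF2 target, at 8.87 against 11.07, 10.70, 10.37 and 11.45.

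**Figure D4:**
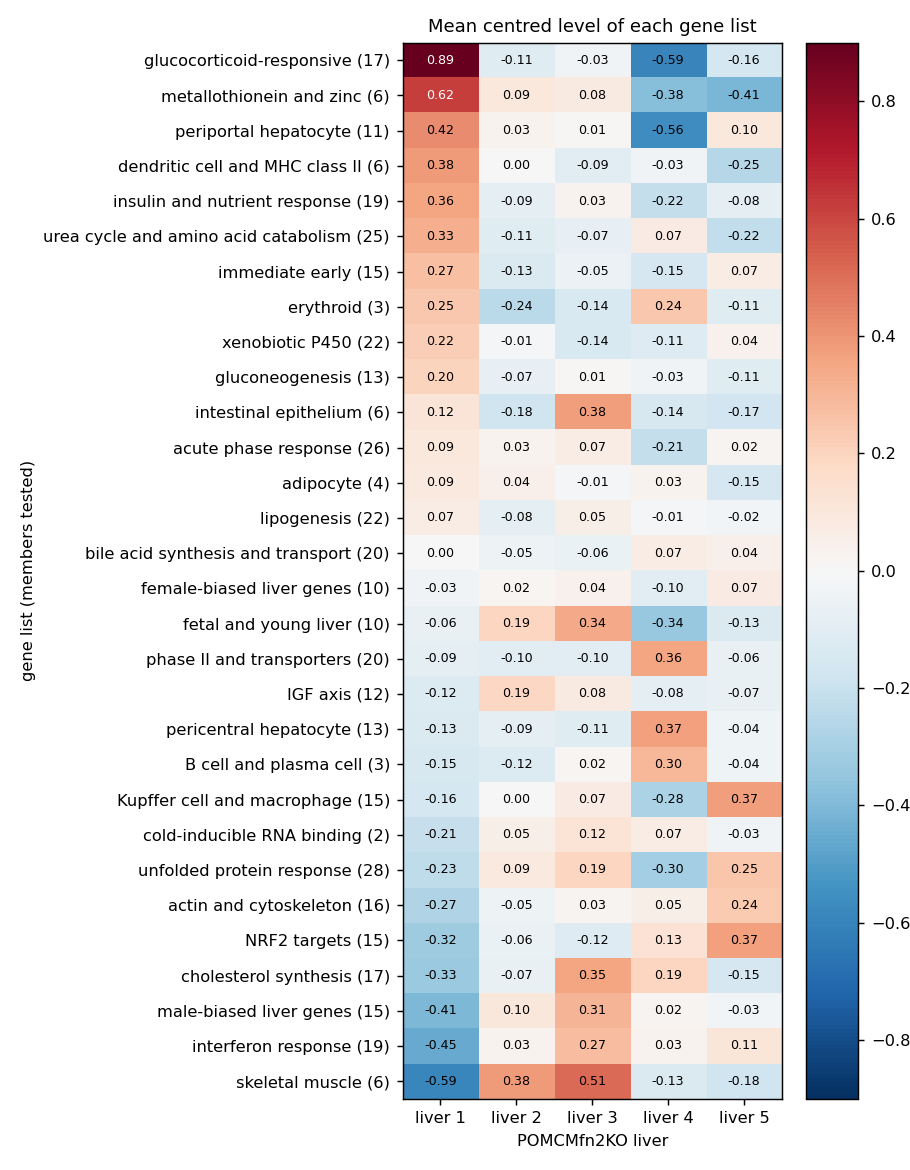
Mean log2 level of each gene list in POMCMfn2KO livers 1 to 5 after each gene was centred on its mean over the 5 livers, with red above and blue below that mean and the number of tested genes in brackets. The acinar list is left out because of its size. Liver 1 is highest for glucocorticoid-responsive genes (0.89) and lowest for muscle (-0.59) and interferon genes (-0.45), liver 4 lowest for periportal genes (-0.56, with Hsd17b13 at its brighter probe set, and 0.01, no longer the lowest, with its second) and liver 5 highest for Kupffer cell (0.37) and NRF2 genes (0.37).

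The centred mean of the interferon-stimulated genes was lowest in liver 1 (-0.45). Type I interferon acts through a factor that binds a short element with repeated GAAA blocks, the interferon-stimulated response element, in the promoters of these genes. The promoter windows here run from 250 bases before to 50 bases after each RefSeq start (build GRCm38.p6). The core of the element, searched as GAAANNGAAA on both strands, was found in 8 of the 18 windows of 15 matched interferon genes and in 3.44% of all 32851 windows. This element was added to the search after the data had been seen. Windows of 80 bases upstream of the start are shown for Oas1a and Bst2, which had the largest spread of the genes with a match, with the matches in capitals. The window of Oas1a lies at chr5:120907526-120907605 on the minus strand, and that of Bst2 at chr8:71537555-71537634 on the minus strand.

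Oas1a: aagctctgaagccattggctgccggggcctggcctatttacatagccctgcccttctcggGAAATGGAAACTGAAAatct
Bst2: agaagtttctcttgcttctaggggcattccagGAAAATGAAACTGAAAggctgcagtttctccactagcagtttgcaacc

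In both windows 2 matches overlap, which gives 3 GAAA blocks in a row. Irf7, the transcription factor that amplifies the interferon response, stood at 7.26 and 8.15 in livers 1 and 4 and at 9.29, 9.14 and 9.19 in livers 2, 3 and 5, with controls at 8.92 to 8.95. Oas1a, an oligoadenylate synthetase that activates RNA decay, stood at 7.68 and 8.30 against 9.06, 9.24 and 9.25. Bst2, a surface protein that tethers budding virus, stood at 9.95 and 10.13 against 10.97, 11.09 and 11.39. These 3 and Ifi27l2a shared 1 pattern, with livers 1 and 4 below livers 2, 3 and 5. Ifit1, whose promoter also held the core, had another: it stood at 7.02, 7.35, 8.23, 8.10 and 7.60 in livers 1 to 5, so liver 2 was low and liver 4 high. Of the 19 tested interferon genes, 5 had an SD of at least 0.5, and liver 1 was the lowest for 14.

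Genes of the unfolded protein response varied together in a similar but not identical way. This response raises chaperones and folding enzymes when unfolded protein builds up in the endoplasmic reticulum, in part through a bipartite promoter element, the endoplasmic reticulum stress element (ERSE), in which CCAAT and CCACG are held 9 bases apart. The element was found, on either strand, in 10 of the 25 promoter windows of the 24 matched genes of this list (40.0%) and in 39 of all 32851 windows (0.119%). The 10 genes were Calr, Canx, Creld2, Derl3, Dnajc3, Ero1b, Hsp90b1, Hspa5, Pdia6 and Syvn1. The other motifs searched were GAANNTTC of heat shock genes, in 0 of the 25 windows and 7.86% of all, the E-box CACGTG, in 3 of 25 and 7.15% of all, and the D-box TTATGTAA, in 1 of 25 and 0.938% of all. Windows of 80 bases are shown for the 3 genes with a match and the largest spread and for Hspa5, the main chaperone, with the element in capitals. They lie at chr13:12565651-12565730 for Ero1b, chr15:88819489-88819568 for Creld2, chr12:17266460-17266539 for Pdia6 and chr2:34771994-34772073 for Hspa5, all on the plus strand.

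Ero1b: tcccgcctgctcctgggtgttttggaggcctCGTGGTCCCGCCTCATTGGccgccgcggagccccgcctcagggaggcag
Creld2: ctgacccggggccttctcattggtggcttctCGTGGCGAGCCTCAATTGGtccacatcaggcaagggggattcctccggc
Pdia6: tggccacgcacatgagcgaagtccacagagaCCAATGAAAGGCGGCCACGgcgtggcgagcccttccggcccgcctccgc
Hspa5: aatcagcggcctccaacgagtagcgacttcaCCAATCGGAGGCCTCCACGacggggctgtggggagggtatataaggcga

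In Ero1b and Creld2 the element reads on the other strand. Ero1b, which reoxidises the disulfide-forming enzymes of the reticulum, stood at 10.47 and 10.35 in livers 1 and 4, at 11.57, 11.63 and 11.91 in livers 2, 3 and 5, and at 10.32 in each control. Creld2, a secreted stress protein, stood at 10.64, 10.88, 11.24, 9.98 and 11.28 in livers 1 to 5, with controls at a mean of 9.04. Pdia6, a disulfide isomerase, stood at 10.21, 11.08, 11.31, 10.41 and 11.30, with controls at 10.55 to 10.63. Hspa5 itself moved less, at 13.64, 13.84, 13.99, 13.51 and 13.98. Sdf2l1, a reticulum protein that works with Hspa5, varied most of the list, at 8.78, 9.50, 9.96, 7.95 and 10.25, with controls at 7.69 to 7.82. Livers 1 and 4 were the lowest in each of these 5 genes.

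Of the 28 tested genes of the unfolded protein response, 4 had an SD of at least 0.5, the median SD was 0.27 and the median correlation between members was 0.74. Liver 5 was the highest for 17 and liver 4 the lowest for 15. The 10 genes with the element had a median SD of 0.30, and their mean was -0.28, 0.15, 0.26, -0.44 and 0.32 in livers 1 to 5 after centring. The 14 matched genes without it had a median SD of 0.18 and followed the same order with smaller values. The acinar list, whose cells are rich in these chaperones, was high in livers 2 and 3 and lowest in liver 5, where the centred means were -1.35 for the acinar list and 0.25 for the unfolded protein response. The part of acinar transcripts in these values was not tested.

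**Figure D5:**
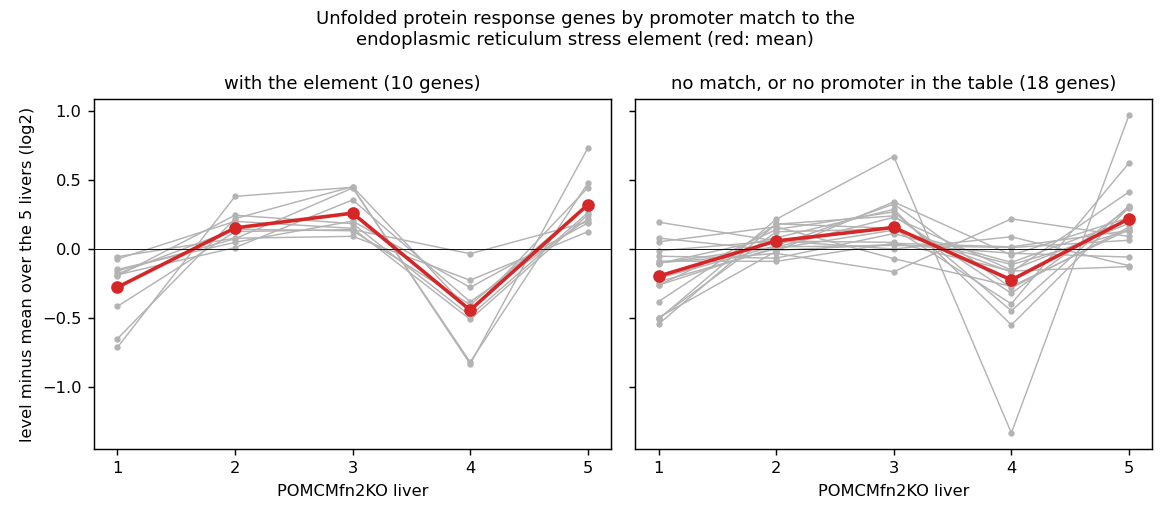
Log2 level of each unfolded protein response gene (grey, lines join the points of 1 gene) in POMCMfn2KO livers 1 to 5 after subtraction of its mean over the 5 livers, with the mean of the genes in red. The left panel has the 10 genes whose promoter window holds the ERSE and the right panel the other 18, and in both the mean is lowest in liver 4 and highest in liver 5.

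Some of the genes with the widest spread were low in liver 4 alone. Cyp2c39, a retinoic acid hydroxylase, stood at 7.07 in liver 4 and at 11.33, 12.13, 11.63 and 12.72 in livers 1, 2, 3 and 5, with controls at 11.66 to 11.76. Lpin1, a phosphatidate phosphatase and co-regulator induced by fasting and glucocorticoids, stood at 7.26 in liver 4 and at 12.20, 9.38, 10.30 and 9.49 in the others. Its second probe set followed it with r of 0.999. Cyp39a1, an oxysterol hydroxylase, stood at 8.70 in liver 4 and at 11.65, 11.29, 10.97 and 11.54 in the others, with controls at a mean of 8.90. Cyp39a1 in liver 4 thus lay near the controls, whereas Cyp2c39 in liver 4 lay far from every other liver of the series.

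Hsd17b13, an enzyme on hepatocyte lipid droplets, was read by 2 probe sets that disagreed. The brighter one stood at 8.79 in liver 4 and at 13.33, 13.20, 13.13 and 13.28 in livers 1, 2, 3 and 5, and the controls were between, at 12.32 to 12.43. The second one stood at 10.15 in liver 4 and at 6.64, 6.59, 6.83 and 6.90 in the other livers, with controls at 9.31 to 9.40. The probe sets were mirror images over the 5 livers (r of -0.996), so no direction is given for the gene in liver 4. Among 100 genes with an SD of at least 0.5 and a second probe set above the level filter, 9 had a negative correlation between the probe sets.

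In some of the genes high in liver 4, the other 4 livers lay below the controls. Nat8, an acetyltransferase of the reticulum, stood at 10.82 in liver 4, at 7.08, 7.71, 7.53 and 7.36 in livers 1, 2, 3 and 5, and at 10.58 to 10.86 in the controls. Its neighbour and relative Nat8f5 followed it with r of 0.99, and probe sets of such relatives can read each other's transcripts. Serpina7, thyroxine-binding globulin, stood at 7.03 in liver 4 and at 3.36, 4.29, 5.20 and 5.22 in the others, with controls at 8.33 to 8.41, above all 5. Apol7a stood at 11.50 in liver 4 and at 9.63 to 10.12 in the others, with controls at 11.62 to 11.69. Asns, asparagine synthetase, stood at 9.44 in liver 4 and at 7.35 to 7.69 in the others, and the controls were between, at 8.29 to 8.42.

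Liver 4 had the highest level of 11 of the 13 tested pericentral genes, with a centred mean of 0.37 against -0.13 to -0.04 in the other livers. It had the lowest level of 5 of the 11 periportal genes, whose centred mean was -0.56 there. That mean rests on Hsd17b13 at its brighter probe set: it was -0.26 without the gene, still the lowest of the 5 livers, and 0.01 with the second probe set, where liver 2 was the lowest at -0.12. Cdh1, E-cadherin of periportal hepatocytes, stood at 8.88 in liver 4 and at 10.27 to 10.42 in the others, with controls at a mean of 9.02. The periportal list was highest in liver 1, the highest liver for 9 of its 11 genes. Asl and Ass1 are in this list and in the urea cycle list, so the lists are not separate. Ppargc1a, the coactivator of fasting genes, ran from 9.32 in liver 1 to 7.05 in liver 4, with 7.95, 8.44 and 8.15 in livers 2, 3 and 5.

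Alas2, the haem synthesis enzyme of red cell precursors, stood at 10.20 in liver 4 and at 7.78 to 8.12 in the others, but the other tested genes of the erythroid list, Tfrc and Car2, were lowest in liver 4. The erythroid list as a whole did not move together. Endothelial genes were lowest in liver 4 for 8 of 11, with Lyve1 at 7.51 there and 8.47 to 9.79 in the others. The median SD of that list was 0.17 over the knockout livers and 0.15 over the controls.

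Among the 308 genes, liver 5 was alone in 15, fewer than livers 1 and 4 and more than livers 2 and 3. By Dixon's ratio over all genes it was apart in 180, as many as liver 4. Liver 5 had the highest level of 14 of the 15 tested Kupffer cell and macrophage genes, whose median correlation was 0.80. Lyz2, lysozyme of macrophages, stood at 10.47 in liver 5 and at 9.32, 9.76, 9.88 and 9.76 in livers 1 to 4. Cd5l, a secreted macrophage protein, stood at 11.76 against 10.93 to 11.42. Marco, a scavenger receptor, was the only gene of the list with an SD of at least 0.5, at 6.39, 6.99, 7.31, 6.21 and 7.38. Macrophage genes varied among the controls as well, with a median SD of 0.16 against 0.29 among the knockout livers.

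NRF2 targets, the enzymes of thiol defence and detoxification, were highest in liver 5 for 10 of 15 genes. Ephx1, epoxide hydrolase, stood at 11.43, 12.16, 12.30, 12.37 and 12.80 in livers 1 to 5. Gclc, which makes glutathione, stood at 10.87 in liver 1 and at 11.63 to 11.93 in the others. The centred mean of the list was lowest in liver 1 (-0.32) and highest in liver 5 (0.37). Anxa5, which binds phosphatidylserine, ran from 8.47 in liver 1 to 10.55 in liver 5, below its control mean of 11.18 in all 5.

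Cholesterol synthesis had its own order. Liver 3 was the highest for 10 of the 17 tested genes and liver 1 the lowest for 10, with a median correlation of 0.55 and 5 genes with an SD of at least 0.5. Msmo1, a sterol oxidase, stood at 8.94, 8.64, 9.89, 9.86 and 8.33 in livers 1 to 5. Sqle, squalene epoxidase, stood at 7.44, 7.69, 8.80, 8.28 and 7.74. Livers 2 and 3, the closest pair over all genes, differed in both, by 1.25 for Msmo1 and by 1.11 for Sqle. They also differed in Tff3, a mucosal repair peptide, by 1.41 with liver 3 the higher, and in Lgals4, an intestinal galectin, at 6.73 and 8.50.

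Genes of cell division that were high in livers 2, 3 and 5 were few. Spc25, a kinetochore protein, stood at 6.12 and 7.18 in livers 1 and 4 and at 8.62, 8.56 and 9.16 in livers 2, 3 and 5, with controls at 8.45 to 8.54. Rad51b, a DNA repair protein, stood at 6.02 and 6.03 against 8.68, 7.65 and 8.60. The proliferation list had 2 of 15 tested genes with an SD of at least 0.5 and a median SD of 0.18. Spc25, Rad51b and Alas1, the haem synthesis enzyme of hepatocytes, were chosen here after their values were seen. Alas1 stood at 11.27 and 11.45 in livers 1 and 4 and at 13.19, 13.03 and 12.47 in livers 2, 3 and 5, with controls at 12.22 to 12.27.

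None of 19 tested clock genes, 22 heat shock genes, 28 genes of oxidative phosphorylation or 18 cytosolic ribosomal proteins had an SD of at least 0.5, which in lists of this size is near the 2.57% of all genes. The median SD was 0.17 for the clock and for the heat shock list, above the 0.13 of all genes, and 0.10 for oxidative phosphorylation and 0.08 for ribosomal proteins, below it. Dbp, the clock output gene with a large daily swing, stood at 8.25, 7.90, 7.79, 7.86 and 7.70 in livers 1 to 5 and at 10.01 to 10.14 in the controls. Hspa1b, an inducible heat shock protein, stood at 11.32, 11.19, 11.52, 10.53 and 11.18, with controls at 8.90 to 9.03. For both genes the range over the 5 livers was smaller than the distance from any of them to the controls. Fgf21, a fasting hormone, stood at 8.92, 8.85, 9.02, 9.40 and 8.82, and Srebf1, a regulator of fat synthesis, at 8.80, 9.24, 9.22, 9.14 and 8.85. Mfn2, whose deletion was in neurons, stood at 9.98, 9.37, 9.52, 9.68 and 9.48 in the livers. The hepatocyte list had a median SD of 0.06, and all 8 of its tested genes were under 0.5.

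A second probe set gave another reading of the same RNA for 100 of the 308 genes. The median correlation between the probe sets of a gene was 0.98, and 74 of the 100 had an r of at least 0.9. The second probe set itself had an SD of at least 0.5 in 59 of the 100, so the size of the spread was shared less often than its order. For genes with an SD under 0.5 the median was 0.57 and 18.8% had an r of at least 0.9. Genes next to each other on a chromosome were little alike as a rule: over 11911 pairs of neighbours the median r was 0.06, against 0.003 over all pairs. Among 30 pairs of neighbours that both had an SD of at least 0.5, 10 had an r of at least 0.9, and most of these were families of related genes, such as Mt1 with Mt2, Acot3 with Acot4, Hsd3b5 with Hsd3b2, Nat8 with Nat8f5, and Cyp2c54 with Cyp2c50. Family members can share probes. Cyp2c37 and Cyp2c39, of the same cluster, had different patterns.

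By Dixon's ratio, 882 genes (7.36% of all tested) had 1 liver beyond 0.71, where chance alone gives about 1 in 20. Liver 1 was that liver for 400 genes, livers 4 and 5 for 180 each, liver 2 for 67 and liver 3 for 55. Measures of array quality differed little between the knockout livers. The difference between the 3' and 5' probe sets of Gapdh was -0.13 to 0.01 over all 8 arrays, lowest in liver 1, and that of actin 1.04 to 1.19. The spike BioB-5, added at hybridisation, read 9.15, 8.88, 8.83, 9.05 and 9.01 in livers 1 to 5 and 8.56 to 8.72 in the controls. Liver 1 had the highest and livers 2 and 3 the lowest spike among the knockouts, and its part in the spread was not tested.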

How the data were processed

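Whole-liver RNA was hybridised as biotin-labelled cRNA to Affymetrix mouse arrays. The authors deposited 1 log2 value for each probe set and array, with RMA and affy named in the submitters' processing notes; versions are not given in the sources used here. RMA makes the distributions of all arrays alike, so a change shared by most genes of a liver would not show. Medians over probe sets were 5.79 to 5.81 in all arrays. Arrays carry no read depth, and their number (3 and 5) limits the precision.

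Of 45101 probe sets, 64 were controls, 34945 had 1 symbol in the platform annotation, 932 several and 9160 none. Each of 18193 genes was read at its brightest probe set, by the mean of all 8 arrays, and 6207 genes under the median of all non-control probe sets (5.80) were left out, which left 11986. SD, correlation, the largest gap, Dixon's ratio and principal components (no scaling of genes) were computed over the 5 knockout livers with numpy 2.4.6 and pandas 2.3.3. The spread test was limma 3.58.1 in R 4.3.3 (lmFit and eBayes, 2-sided) on absolute deviations from the group mean, scaled for group size, with Benjamini-Hochberg adjustment over all genes; it was tested on simulated data. Deviations within a group of 3 are not independent, so its p-values are approximate. Of 852 list entries in 49 lists, 672 were tested. A rule for longer description was set: a median SD at least 1.5 times that of all genes, or at least 25% of members at an SD of 0.5. It was met by 31 lists, and not all are described above. Left out as lists were fetal and young liver (6 of 10 genes at an SD of 0.5) and immediate early genes (4 of 15). So were adipocyte (2 of 4), B cell and plasma cell (0 of 3) and cold-inducible RNA binding (0 of 2). For insulin and nutrient response (7 of 19), actin and cytoskeleton (2 of 16), intestinal epithelium (2 of 6) and lipogenesis (2 of 22), only single genes are shown. Lists that missed the rule are given by their counts where they are named.

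Genes were named by a rule, and not all of the named genes are printed in the text. The rule took the 25 with the largest SD, the 10 with the lowest p in the spread test and 5 for each of the 31 lists. It also took the 5 with the smallest SD and 14 fixed genes. The 10 most correlated each way with the acinar mean, Igfbp1 and the second component were named as well. Genes shown at a threshold, with a promoter match, as a neighbour of another gene, or as an exception, and Kyat3, Fabp5, Zbtb16, Serpina7, Lyve1 and Eif2s3y, were picked with their values in view. The members and lists were chosen with earlier results of these data known. Symbols and promoter windows came from RefSeq tables of build GRCm38.p6. The alternatives tried were other filters, other probe set rules, centring, quantile normalization, other deviations, a replicate block, and leaving out each liver.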

Additional observations from a re-analysis of the deposited data

Results flagged for a closer look

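In the following genes and lists, 1 of the 5 knockout livers lay beyond 0.71 of the range by Dixon's ratio. Chance flags about 1 in 20, and 7.36% of all genes tested did so.

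These are 23 of the 194 named genes, and the naming rule took genes by their correlation with the second component, on which liver 4 lies farthest out. The number per liver therefore depends on that rule: over all genes tested, liver 1 was the one apart in 400 and liver 4 in 180. Among the 23, liver 4 was apart in 13. It was high in Alas2 (10.20), Apol7a (11.50), the water channel Aqp8 (9.37), Arrdc3 (10.19), Asns (9.44), the lipid droplet protein Fitm1 (9.59) and Nat8 (10.82). It was low in Cdh1 (8.88), Cyp2c39 (7.07), Cyp39a1 (8.70), Gmnn, an inhibitor of DNA replication licensing (7.27), Hsd17b13 at its brighter probe set (8.79) and the zinc importer Slc39a4 (8.53). Liver 1 was apart in 9 genes, high in Asl (13.79), H2-Eb1 (9.77), Orm3 (6.29), Rgs16 (8.73) and the organic anion transporter Slco1a4 (10.59), and low in Gclc (10.87), Igfals (9.07), Pdk4 (8.01) and Retn (6.10). Liver 2 was low in Ncoa5 (7.21), which had 1 of the 5 smallest SDs of all genes, 0.01, so that this gap is small.

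By centred list means, liver 4 was apart in 3 lists: high for pericentral hepatocyte genes (0.37) and for phase II enzymes and transporters (0.36), and low for the acute phase response (-0.21).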

How the results depend on the processing

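The spread test called 15 genes with a larger spread among the knockout livers. It called 0 with deviations from the group median, with squared deviations, with a filter at the 75th percentile of level, without livers 2 and 3, and, in an alternative added after seeing the data, without the acinar list. Leaving out 1 liver at a time gave 0 to 149 genes: 0 with any 1 control liver left out, and 47, 68, 149, 37 and 121 without livers 1 to 5. Of the genes called without liver 2 or liver 3, 1 was among the 15. The count with a replicate block was 13, of which 5 were among the 15; the numbers are not stated to pair the mice. The other 5 settings gave 10 to 17 genes. The count of genes with a smaller spread was 0 in every setting. Without livers 2 and 3, the mean deviation turned smaller than in the controls for 2210010C04Rik (-0.0651), Cela2a (-0.0938), Cela3b (-0.0315), Clps (-0.0813), Cpb1 (-0.118), Reg1 (-0.0640) and Rnase1 (-0.00608). In alternatives added after seeing the data, the periportal mean in liver 4 turned from -0.56 to 0.0118 with the second probe set of Hsd17b13 and was -0.26 without it.

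The median SD was 0.12 with the mean of all probe sets, 0.12 with no filter on dim genes, 0.15 without livers 2 and 3, and 0.12 to 0.14 with 1 knockout liver left out. The 308 genes became 232 with the mean of all probe sets and 488 without livers 2 and 3. They became 526 at an SD threshold of 0.4, 137 at 0.7, and 225 to 384 with 1 knockout liver left out. The first component took 55.4% of the variance without livers 2 and 3, and 44.8% to 58.6% with 1 knockout liver left out, where fewer components share it. The 24 genes high in livers 2 and 3 became 6 with the filter at the 75th percentile and 5 without the acinar list. The cause of these changes was not tested, apart from the smaller sets of genes or livers that the settings themselves use.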
